A study of Mus musculus with 12 samples.

Results

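Collagens, elastic-fiber proteins, proteoglycans and adhesive glycoproteins build the extracellular matrix around tumor cells, and their genes were compared here across salivary tumors of 3 p53 genotypes. The list held 49 matrix genes, which the rule picks by name and not by measured values, although earlier results of these data were known when it was drawn up. Of these, 46 had at least 1 probe set (the group of short array probes that reads a transcript) annotated with that single gene symbol, which made 83 of the 22626 probe sets tested and 46 of the 12393 genes. Fbn1 and Efemp2 had no probe set with that annotation, and the probe set of Loxl2 was shared with another gene, so these 3 stand outside every count. Among the 46 genes, 17 had 1 probe set and 29 had more. The probe set with the highest mean stands for its gene unless another is named. A filter on low values was passed by 56 of the 83 probe sets and by 35 of the 46 genes.

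Each of the 12 arrays carried RNA from a spontaneous salivary tumor of a mouse with a Ras oncogene transgene under the mouse mammary tumor virus (MMTV) promoter, which is active in mammary and salivary epithelium. KO denotes 4 tumors of MMTV-ras/p53-/- mice, which lack p53. MT denotes 4 tumors of MMTV-ras/p53R172H/R172H mice, whose p53 alleles both carry the R172H substitution in the DNA-binding domain. WT denotes 4 tumors of MMTV-ras/p53+/+ mice, so the Ras transgene was common to all groups. The p53 alleles were inherited, and stromal cells of a tumor therefore carried them as well. All colonies had a mixed background of the same parent strains, and the R172H allele was bred in from mice of a parent strain of that mix. The strains' shares may therefore differ in the MT tumors, where background and genotype cannot be told apart. The labels gave neither the age nor the animal behind each tumor, and the p-values therefore cover tumor-to-tumor spread only. In the study's male cohorts, salivary tumors arose latest in p53+/+ mice and earliest in p53-/- mice. Age at tumor onset and genotype therefore cannot be told apart. RNA came from whole frozen sections. By its methods, the study chose relatively small tumors without extensive necrosis and kept samples that were mostly homogeneous tumor mass on stained sections. In such bulk RNA, fewer cells of a type and less RNA per cell cannot be told apart.

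As background, collagen molecules are triple helices of alpha chains. Types I, III, V and XI assemble into fibrils, type VI forms beaded filaments, and type IV forms the network of basement membranes, which nidogens and perlecan tie to laminin. Lysyl oxidases crosslink collagen and elastin, small leucine-rich proteoglycans coat collagen fibrils, and fibronectin, tenascins and thrombospondins act on cell adhesion. Fibroblasts are the main makers of interstitial matrix in epithelial tumors, whereas basement-membrane components also come from epithelial and endothelial cells.

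Values are log2 expression values, and a difference of 1 is a doubling. Both probe sets that the study's gene list gives for Trp53, the gene altered here, were lower in KO than in WT tumors, by -1.63 ± 0.24 and -1.66 ± 0.23 (SE, adjusted p = 0.0101 and 0.00798), in keeping with the labels. Salivary tumors were epithelial by their markers: the mean of 10 salivary epithelial genes lay between 10.89 and 11.09 in KO tumors and between 10.69 and 11.05 in MT tumors, against 9.83 to 10.92 in WT tumors. The probe sets of added poly-A control RNA averaged 10.38 to 10.56 in 3 MT tumors (MT1 to MT3), against 3.98 to 4.23 elsewhere, a division called the labeling batch here and named in no source. Ribosomal 18S signal was 6.41 to 6.59 in those 3 MT tumors and 7.66 in MT4. It was 7.36 to 8.03 in KO tumors, against 7.51 in WT4 and 8.90 to 9.33 in WT1 to WT3. The 3′ minus 5′ signal of actin, a sign of RNA quality, ranged over 0.36 to 0.51 in KO1 to KO3 with KO4 at 1.05, over 0.17 to 0.40 in MT tumors and over 0.25 to 0.58 in WT tumors. Their part in the results was not tested, but a within-batch value is given beside differences of MT from WT or KO tumors. It comes from a limma model in which that batch is a block, and it rests on MT4, the sole MT tumor of the larger batch. All KO and WT tumors are of the larger batch, so the block leaves KO minus WT differences unchanged. For these it changes only the estimated spread, from which MT4 drops out.

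Promoter sequences are shown for genes on which the results below turn: Col16a1, the member called between MT and WT tumors, and partner genes whose levels went together. The windows come from RefSeq (build GRCm38.p6) and run from 250 bases before the transcription start to 50 bases from it, 5′ to 3′ on the gene's own strand. Capitals mark CCAAT (or its reverse complement ATTGG) and GGGCGG (or CCGCCC). Col4a1 (chr8:11312777-11313076, minus strand) and Col4a2 (chr8:11312555-11312854, plus strand) lie head to head, with starts 21 bases apart and windows that share 78 bases. Col1a2 is at chr6:4505368-4505667 and Col16a1 at chr4:130047590-130047889, both on the plus strand.
Col4a1: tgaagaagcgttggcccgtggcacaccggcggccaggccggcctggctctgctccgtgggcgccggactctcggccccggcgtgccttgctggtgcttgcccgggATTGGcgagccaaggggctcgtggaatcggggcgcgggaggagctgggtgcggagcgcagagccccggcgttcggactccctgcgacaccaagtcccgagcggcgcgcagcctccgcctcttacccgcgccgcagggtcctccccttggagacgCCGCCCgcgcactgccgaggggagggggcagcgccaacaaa
Col4a2: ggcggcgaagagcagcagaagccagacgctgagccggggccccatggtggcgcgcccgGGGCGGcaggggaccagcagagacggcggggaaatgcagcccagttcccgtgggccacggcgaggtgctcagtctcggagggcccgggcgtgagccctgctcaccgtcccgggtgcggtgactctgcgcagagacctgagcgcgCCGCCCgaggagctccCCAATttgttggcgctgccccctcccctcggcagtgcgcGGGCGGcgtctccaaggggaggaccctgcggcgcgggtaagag
Col1a2: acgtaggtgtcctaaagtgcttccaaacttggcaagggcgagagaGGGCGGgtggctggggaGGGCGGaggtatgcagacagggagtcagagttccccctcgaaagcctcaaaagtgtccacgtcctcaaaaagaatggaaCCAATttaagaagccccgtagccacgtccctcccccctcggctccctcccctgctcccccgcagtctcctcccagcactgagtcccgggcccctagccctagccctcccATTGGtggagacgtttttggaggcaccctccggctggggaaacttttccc
Col16a1: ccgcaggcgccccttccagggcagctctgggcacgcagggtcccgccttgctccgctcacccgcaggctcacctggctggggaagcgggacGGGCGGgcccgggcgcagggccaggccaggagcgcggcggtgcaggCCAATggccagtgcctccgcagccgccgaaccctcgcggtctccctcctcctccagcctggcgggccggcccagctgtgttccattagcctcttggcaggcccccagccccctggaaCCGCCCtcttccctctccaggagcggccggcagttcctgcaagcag
CCAAT stood in all 4 windows, once in each except Col1a2, which held 2 copies. GGGCGG occurred once in the Col4a1 window, 3 times in Col4a2 and 2 times each in Col1a2 and Col16a1. Over all 32851 promoter windows, 37.4% held CCAAT and 35.7% held GGGCGG. Of the 42 windows of the 33 matrix genes that matched, 38.1% held CCAAT and 64.3% held GGGCGG. These are counts of letters and not evidence of binding.

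Few matrix genes differed between genotypes beyond the spread of the tumors. In KO compared with WT tumors, 1 of 83 matrix probe sets was called higher (an additional probe set of Fn1) and 0 lower at an adjusted p below 0.05 from limma, while 4.57% of all probe sets were called. In MT compared with WT tumors, 1 was called higher (Col16a1) and 0 lower, against 0.367% of all probe sets. Between MT and KO tumors 0 matrix probe sets were called, against 0.00884% of all. The methods' t-test called 0 of all 22626 probe sets in this comparison, so its 0 among matrix probe sets says nothing particular to them. At an unadjusted limma p below 0.05, 2 matrix probe sets passed (2.41% against 9.58% of all). Across the 3 genotypes the F test called 1 matrix probe set, again Col16a1, and 2.34% of all. At an unadjusted p below 0.05, 14.5% of matrix probe sets passed between KO and WT tumors against 23.9% of all probe sets, and 9.64% against 19.4% between MT and WT tumors.

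The plot of differences shows the 46 genes by role. The median difference over the 46 genes was 0.27 for KO minus WT, 0.24 for MT minus WT and 0.01 for MT minus KO, against -0.01, -0.01 and 0.02 over all genes. With the batch block, the medians for MT were 0.19 and -0.04, and 13 of the 46 genes changed the sign of MT minus WT, Col11a1 and Vcan among them. These medians moved with single tumors: without WT2 the KO minus WT median was 0.08 and the MT minus WT median -0.03, without KO3 the first was 0.06, and without WT3 they were 0.48 and 0.48.

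**Figure D1:**
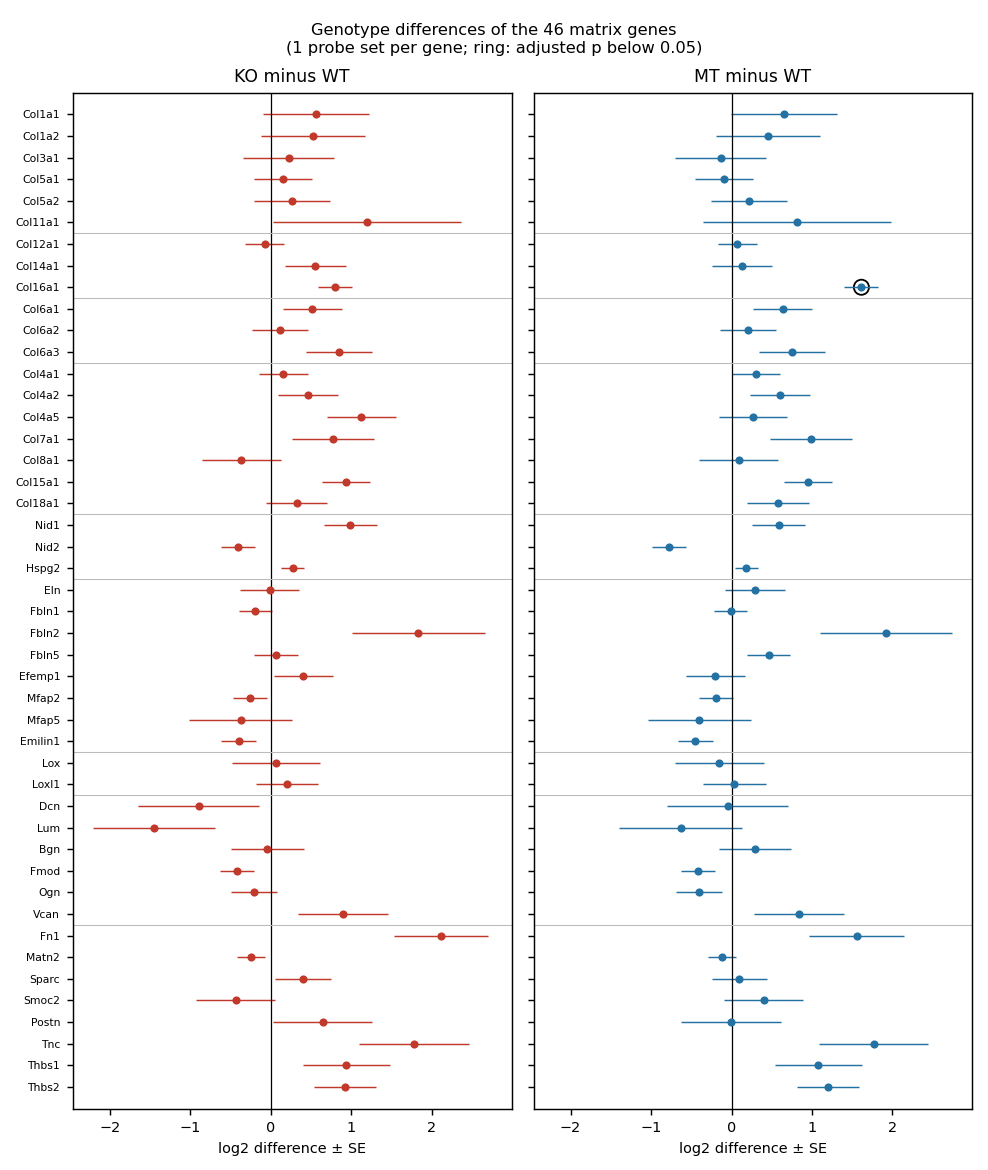
Log2 difference (horizontal axis, with its SE) of each of the 46 matrix genes for KO minus WT tumors (left) and MT minus WT tumors (right), in order of role, 1 probe set per gene, 4 tumors per group. The single ring, an adjusted p below 0.05, is at Col16a1 in MT minus WT (1.61), and the widest bars belong to Col11a1.

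Fibrillar collagens varied widely among tumors of 1 genotype, and 0 of their 13 probe sets were called in any comparison. Col1a1, which encodes the alpha 1 chain of type I collagen, read 8.58, 10.73, 11.38 and 9.28 in KO1 to KO4 and 10.59, 10.59, 9.23 and 9.94 in MT1 to MT4, against 8.95, 8.34, 10.89 and 9.56 in WT1 to WT4. KO2, KO3 and WT3 were the high tumors and WT2 and KO1 the low ones, so that the groups overlapped from end to end. The KO minus WT difference was 0.56 ± 0.66 (adjusted p = 0.648) and the MT minus WT difference 0.65 ± 0.66 (adjusted p = 0.618, within-batch 0.50). Col1a2, its alpha 2 partner, averaged 10.59 ± 1.19 in KO tumors and 10.51 ± 0.65 in MT tumors, against 10.06 ± 1.14 in WT tumors (SD, n = 4 each). Col3a1, of type III collagen, averaged 10.61 ± 0.87 in KO and 10.25 ± 0.73 in MT tumors, against 10.39 ± 1.04 in WT tumors. In both genes the genotype means lay closer together than the tumors of any 1 genotype.

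Col11a1, a type XI chain best known from cartilage, had the largest spread within genotypes of all 46 genes, with an SD of 1.86. It read 9.13, 8.88, 10.03 and 10.87 in KO tumors and 8.77, 11.13, 10.58 and 6.90 in MT tumors, against 9.14, 5.0, 10.56 and 9.42 in WT tumors. WT2 and MT4 were far below the rest. KO minus WT was 1.20 ± 1.17 (adjusted p = 0.57), and it was 0.02 without WT2.

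Among the fibril-associated collagens, which sit on fibril surfaces, Col16a1 was the exception to this overlap. It read 8.23, 8.27, 8.24 and 7.92 in KO tumors and 8.73, 9.40, 9.28 and 8.52 in MT tumors, against 7.20, 7.12, 7.81 and 7.34 in WT tumors. Every MT tumor was above every KO tumor, and every KO tumor above every WT tumor. The MT minus WT difference was 1.61 ± 0.21, a 3.06-fold higher level (adjusted p = 0.0191). Within the labeling batch it was 1.15 with an adjusted p of 0.357, and MT4, the MT tumor of the larger batch, was itself the lowest of the MT tumors. KO minus WT was 0.80 ± 0.21, or 1.74-fold (adjusted p = 0.0553). In the fit with the batch block this difference was the same and its estimated spread smaller (adjusted p = 0.0407, with 4.87% of all probe sets called). MT minus KO was 0.82 ± 0.21 and was not called (adjusted p = 0.267, and a within-batch difference of 0.36). The call between MT and WT tumors was lost without WT1 (adjusted p = 0.062) and without MT3 (0.0874). Over all 22626 probe sets, 83 were called in the main fit and 4 without either of these tumors. The study had picked Col16a1 from these same tumors as differing among genotypes, so its place in that list is not independent evidence. Col12a1 and Col14a1, the other fibril-associated members, differed by -0.07 and 0.55 between KO and WT tumors and by 0.07 and 0.13 between MT and WT tumors (within-batch 0.15 and 0.39), without a call.

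**Figure D2:**
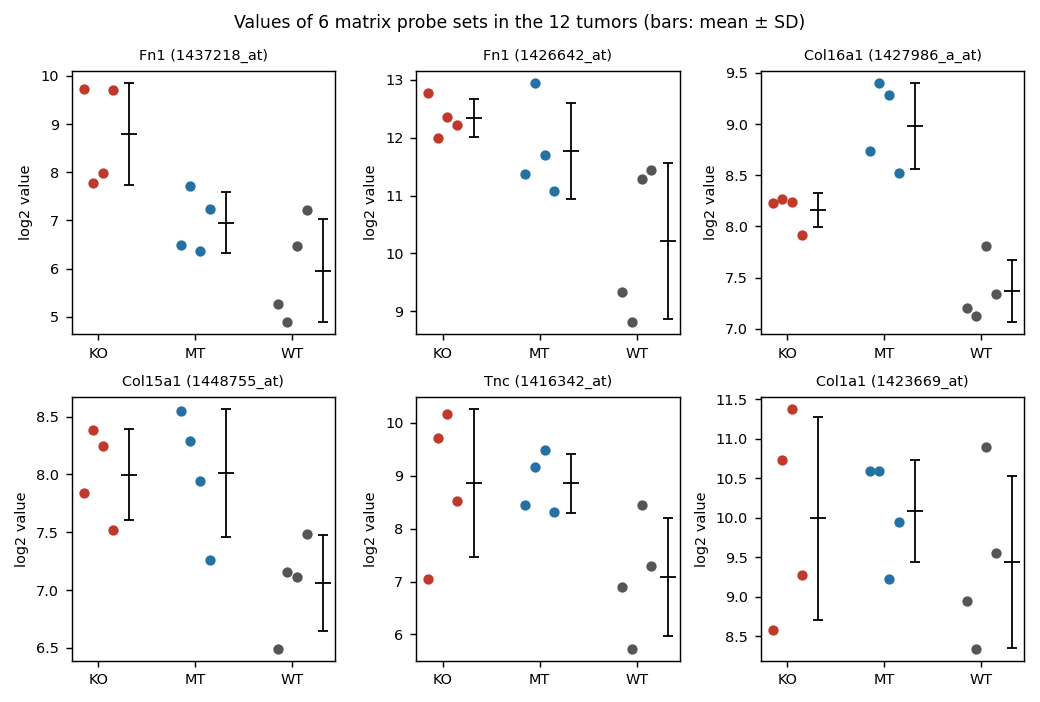
Log2 values of 6 matrix probe sets in each tumor (points), with the mean and SD of each genotype beside them (KO, MT and WT, 4 tumors each). Col16a1 separates all 3 groups and both Fn1 probe sets separate KO from WT tumors, while Col1a1, from 8.58 to 11.38 in KO and 8.34 to 10.89 in WT tumors, overlaps fully.

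The 3 genes of collagen VI, whose filaments link cells to fibrils, had positive differences in both comparisons and no call. Col6a3 had the smallest p of them: 8.58, 9.62, 9.89 and 8.71 in KO tumors and 8.84, 9.67, 8.98 and 8.91 in MT tumors, against 7.57, 7.72, 9.05 and 9.05 in WT tumors. WT1 and WT2 were below all other tumors, and WT3 and WT4 lay among the KO and MT tumors. Its KO minus WT difference was 0.85 ± 0.41 (adjusted p = 0.231).

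Of the 7 genes filed with basement-membrane and related network collagens, 0 of 11 probe sets were called. Col15a1, a collagen of the zone next to basement membranes, was nearest. It read 7.84, 8.39, 8.24 and 7.52 in KO tumors and 8.54, 8.29, 7.94 and 7.26 in MT tumors, against 6.49, 7.16, 7.11 and 7.48 in WT tumors. All KO tumors were above all WT tumors, by a narrow margin at KO4 and WT4, whereas MT4 fell among the WT tumors. KO minus WT was 0.93 ± 0.30 (adjusted p = 0.0905). MT minus WT was 0.95 ± 0.30 (adjusted p = 0.137), but 0.20 within the labeling batch and called without MT4 (adjusted p = 0.04). Without MT4, 801 of 22626 probe sets were called, against 83 with all tumors, so this call is not particular to Col15a1. Col4a1 and Col4a2, the chains of the common collagen IV network, differed by 0.16 ± 0.30 and 0.47 ± 0.37 between KO and WT tumors. Col4a5, a chain of a more restricted collagen IV network, had 11.05, 9.68, 10.26 and 10.78 in KO tumors and 9.58, 9.32, 9.64 and 9.79 in MT tumors, against 8.07, 9.04, 9.95 and 10.20 in WT tumors. Its KO minus WT difference of 1.13 ± 0.43 was not called (adjusted p = 0.138). Col7a1, the anchoring-fibril collagen, was even in WT tumors (6.81 to 7.02) and uneven in KO (6.22 to 8.95) and MT tumors (7.31 to 9.0). All MT tumors were above all WT tumors for Col7a1, yet the difference of 0.99 ± 0.51 had an adjusted p of 0.315 (within-batch 0.88).

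The linkers of the basement membrane did not go one way. Nid1, encoding nidogen-1, read 8.69, 8.72, 8.48 and 7.53 in KO tumors, against 7.51, 6.56, 8.15 and 7.26 in WT tumors (0.99 ± 0.33, adjusted p = 0.101). Its second probe set gave 0.24 ± 0.19. Nid2, encoding nidogen-2, read 5.92, 5.37, 5.73 and 5.76 in MT tumors and 5.78, 6.34, 5.91 and 6.22 in KO tumors, against 6.50, 6.0, 6.99 and 6.38 in WT tumors. Every MT tumor was below every WT tumor, and the MT minus WT difference was -0.78 ± 0.21 (adjusted p = 0.102, within-batch -0.71). Hspg2, which encodes perlecan, had the smallest within-genotype spread of all 46 genes (SD 0.20), with means of 8.79 ± 0.18 in KO and 8.70 ± 0.20 in MT tumors, against 8.51 ± 0.21 in WT tumors. Its second probe set went the other way. There KO minus WT was -0.21 ± 0.14, against 0.28 ± 0.14 at the first. MT minus WT was -0.13 ± 0.14 (within-batch -0.16), against 0.18 ± 0.14 (within-batch -0.03).

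Elastic-fiber genes were not called at any of 12 probe sets. Fbln2, encoding fibulin-2, had the largest spread after Col11a1: 7.54, 9.96, 10.30 and 8.08 in KO tumors and 8.85, 9.52, 10.45 and 7.40 in MT tumors, against 6.70, 5.86, 8.90 and 7.07 in WT tumors. The groups overlapped through WT3, MT4 and KO1. KO minus WT was 1.84 ± 0.83 (adjusted p = 0.203) and MT minus WT 1.92 ± 0.83 (adjusted p = 0.236), with a within-batch MT minus WT value of 0.27. Eln, the gene of elastin itself, differed by -0.01 ± 0.37 and 0.29 ± 0.37 in these comparisons, and the MT difference was -0.26 within the batch. The other 6 members, Fbln1, Fbln5, Efemp1, Mfap2, Mfap5 and Emilin1, lay between -0.40 and 0.41 for KO minus WT and between -0.45 and 0.46 for MT minus WT, where Mfap5 changed sign within the batch.

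Efemp2, encoding fibulin-4, which is needed for elastic-fiber assembly, has a probe set that only the study's own gene list names. The study chose it there for differing among these tumors, so its values are a description. It read 9.01, 8.67, 8.79 and 7.86 in KO tumors and 9.02, 9.12, 9.34 and 8.01 in MT tumors, against 6.88, 6.97, 7.30 and 7.21 in WT tumors. No KO or MT tumor reached down to the WT tumors. The means differed by 1.49 ± 0.30 for KO minus WT and by 1.78 ± 0.30 for MT minus WT (within-batch 0.92). The study discusses this gene alongside those highest in R172H tumors. Here MT minus KO was 0.29 ± 0.30 and not called by limma (adjusted p = 0.83, within-batch -0.58).

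Neither crosslinking enzyme was called at any of 4 probe sets. Lox averaged 7.43 ± 0.90 in KO and 7.21 ± 0.69 in MT tumors, against 7.36 ± 1.00 in WT tumors. Loxl1 read 6.73, 7.73, 8.18 and 6.79 in KO tumors and 7.64, 7.26, 6.58 and 7.29 in MT tumors, against 6.98, 6.44, 7.94 and 7.28 in WT tumors. The high and low tumors were those of the fibrillar collagens, and the KO minus WT difference of 0.20 ± 0.39 turned negative without WT2 (-0.04) or without KO3 (-0.07).

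Proteoglycans had a negative median in both comparisons (-0.32 for KO minus WT, -0.23 for MT minus WT, or -0.35 within the batch), with 0 of 16 probe sets called. Fmod, encoding fibromodulin, had the smallest p, at 6.14, 6.23, 6.05 and 6.14 in MT tumors and 5.72, 6.64, 6.35 and 5.86 in KO tumors, against 6.69, 6.24, 6.98 and 6.34 in WT tumors. All MT tumors were below all WT tumors, by 0.42 on average (-0.42 ± 0.21, adjusted p = 0.301, within-batch -0.42), though MT2 at 6.23 and WT2 at 6.24 nearly met. At its other probe sets MT and WT tumors overlapped, with differences of -0.18 to -0.89 (within-batch -0.17 to -0.26). No Fmod probe set passed the filter on low values. Lum, the lumican gene, read 5.52, 5.89, 5.97 and 5.17 in KO tumors and 7.02, 6.40, 6.01 and 6.40 in MT tumors, against 8.64, 4.88, 8.95 and 5.89 in WT tumors. WT1 and WT3 stood far above the rest while WT2 was the lowest of the 12 tumors. The KO minus WT difference of Lum was -1.45 ± 0.76 (adjusted p = 0.273). Dcn, the decorin gene, had its highest values in WT1 (9.75) and WT3 (8.47) among WT tumors and its lowest in WT2 (5.60), and averaged 6.72 ± 0.50 in KO and 7.57 ± 0.76 in MT tumors, against 7.62 ± 1.85 in WT tumors. Vcan, which encodes the large proteoglycan versican, differed by 0.90 ± 0.56 for KO minus WT and 0.84 ± 0.56 for MT minus WT, neither of them called, and the MT difference was negative within the batch (-0.27).

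Among adhesive and matricellular genes, Fn1 differed most between KO and WT tumors. Fn1 encodes fibronectin, which binds integrins and collagen. Its additional probe set read 9.73, 7.78, 7.98 and 9.70 in KO tumors and 6.50, 7.71, 6.38 and 7.24 in MT tumors, against 5.26, 4.89, 6.47 and 7.22 in WT tumors. All KO tumors were above all MT and all WT tumors, and MT and WT tumors overlapped. KO minus WT was 2.84 ± 0.60, a 7.14-fold higher level (adjusted p = 0.0271). The probe set that stands for Fn1 by its higher mean read 12.77, 11.99, 12.36 and 12.22 in KO tumors and 11.37, 12.95, 11.70 and 11.07 in MT tumors, against 9.33, 8.81, 11.29 and 11.44 in WT tumors. Here too KO and WT tumors did not overlap, but the difference of 2.12 ± 0.59 was not called (adjusted p = 0.0644). WT1 and WT2 were the low tumors at both probe sets. MT minus WT was 0.99 ± 0.60 and 1.56 ± 0.59 at the 2 probe sets (adjusted p = 0.385 and 0.194, within-batch 1.28 and 0.85). MT minus KO was -1.84 ± 0.60 and -0.56 ± 0.59 (adjusted p = 0.359 and 0.831, within-batch -1.56 and -1.26). The call at the additional probe set was lost without WT1 (adjusted p = 0.0766), WT2 (0.0502), WT3 (0.0588), KO1 (0.0609) or KO4 (0.0552), with differences of 2.48 to 3.26 over all tumors left out in turn. Over all 22626 probe sets, 1035 were called in the main fit and 269, 971, 196, 627 and 796 without these tumors in turn.

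Tnc, the gene of tenascin-C, read 7.05, 9.71, 10.17 and 8.52 in KO tumors and 8.45, 9.15, 9.49 and 8.32 in MT tumors, against 6.89, 5.73, 8.44 and 7.28 in WT tumors. KO1 lay with the WT tumors and WT3 with the MT tumors. Both differences were sizeable but not called, at 1.78 ± 0.68 for KO minus WT (adjusted p = 0.143) and 1.77 ± 0.68 for MT minus WT (adjusted p = 0.201, within-batch 1.23). Thbs2, encoding thrombospondin-2, read 8.16, 7.98, 7.73 and 8.06 in MT tumors and 6.68, 8.28, 8.27 and 7.61 in KO tumors, against 6.32, 6.18, 7.70 and 6.95 in WT tumors. Its MT minus WT difference was 1.20 ± 0.38 (adjusted p = 0.145, within-batch 1.28). The second probe set of Thbs2 gave 0.69 ± 0.30 (adjusted p = 0.246, within-batch 0.54), with MT and WT tumors overlapping. Thbs1, the thrombospondin-1 gene, was even in KO tumors (11.01 to 11.27), against a range of 8.31 to 11.59 in WT tumors. Postn and Sparc, the periostin and osteonectin genes, differed by 0.64 ± 0.62 and 0.40 ± 0.35 between KO and WT tumors.

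Smoc2, which encodes a calcium-binding matricellular protein, was high in a single tumor. It read 5.26, 5.21, 4.84 and 7.52 in MT tumors and 4.55, 5.09, 5.27 and 4.58 in KO tumors, against 5.10, 5.07, 5.95 and 5.11 in WT tumors. The second probe set was at 5.33 in MT4 and at 3.93 to 4.44 in the others. With the labeling batch as a block, MT minus KO became 2.65 (adjusted p = 0.0439) and 1.32 (0.0179) at the 2 probe sets, where 0.0575% of all probe sets were called, and MT minus WT became 1.10 at the second (adjusted p = 0.0462, with 0.084% of all called). As that fit rests on MT4, these calls describe 1 tumor.

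Groups that do not overlap were no more frequent among matrix probe sets than over the array. All KO tumors were above all WT tumors at 4 matrix probe sets (both of Fn1, Col16a1 and Col15a1), or 4.82% against 6.1% of all probe sets. All KO tumors were below at 1 (the second of Smoc2), or 1.2% against 8.37%. All MT tumors were above all WT tumors at 3 (Col16a1, Col7a1 and Thbs2), or 3.61% against 4.44%, and below at 3 (Nid2, Emilin1 and Fmod), or 3.61% against 6.44%. All MT tumors were above all KO tumors at 2 (Col16a1 and Lum), or 2.41% against 2.88%, and below at 1 (Fn1), or 1.2% against 1.97%. Of the probe sets named here, those of Nid2, Emilin1, Fmod, Lum and Smoc2 did not pass the filter on low values.

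Tumors of the same genotype differed more in matrix genes than in the typical gene. The within-genotype SD had a median of 0.60 over the 46 matrix genes, against 0.27 over all genes, and 44 of the 46 exceeded the median of all genes. With genes of low values left out, the medians were 0.64 over 35 matrix genes and 0.33 over all. Fibrillar collagens (0.96), adhesive and matricellular genes (0.82) and proteoglycans (0.80) had the higher medians among role groups, and the basement-membrane linkers (0.31) the lowest.

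Certain tumors led or trailed their genotype for many matrix genes at once, most clearly in the WT group. Within the KO group, KO3 was the highest tumor for 25 of 46 genes (54.3%, against 23.4% of all genes) and KO1 the lowest for 25 (54.3% against 34.9%). Within the MT group, MT2 was the highest for 20 (43.5% against 30.6%) and MT3 the lowest for 23 (50% against 15.5%). Within the WT group, WT3 was the highest for 38 of 46 genes (82.6%, against 15.1% of all genes) and WT2 the lowest for 31 (67.4% against 30.9%). Averaged over the 46 genes, the tumors stood at 7.51, 8.33, 8.44 and 7.59 in KO1 to KO4 and at 8.07, 8.24, 7.79 and 7.84 in MT1 to MT4, against 7.50, 6.95, 8.42 and 7.68 in WT1 to WT4. The mean over all genes stayed between 7.21 and 7.29 in the 12 tumors. By the study's methods the processing included quantile normalization, which gives every array the same distribution of values. That evenness was therefore set by the processing.

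**Figure D3:**
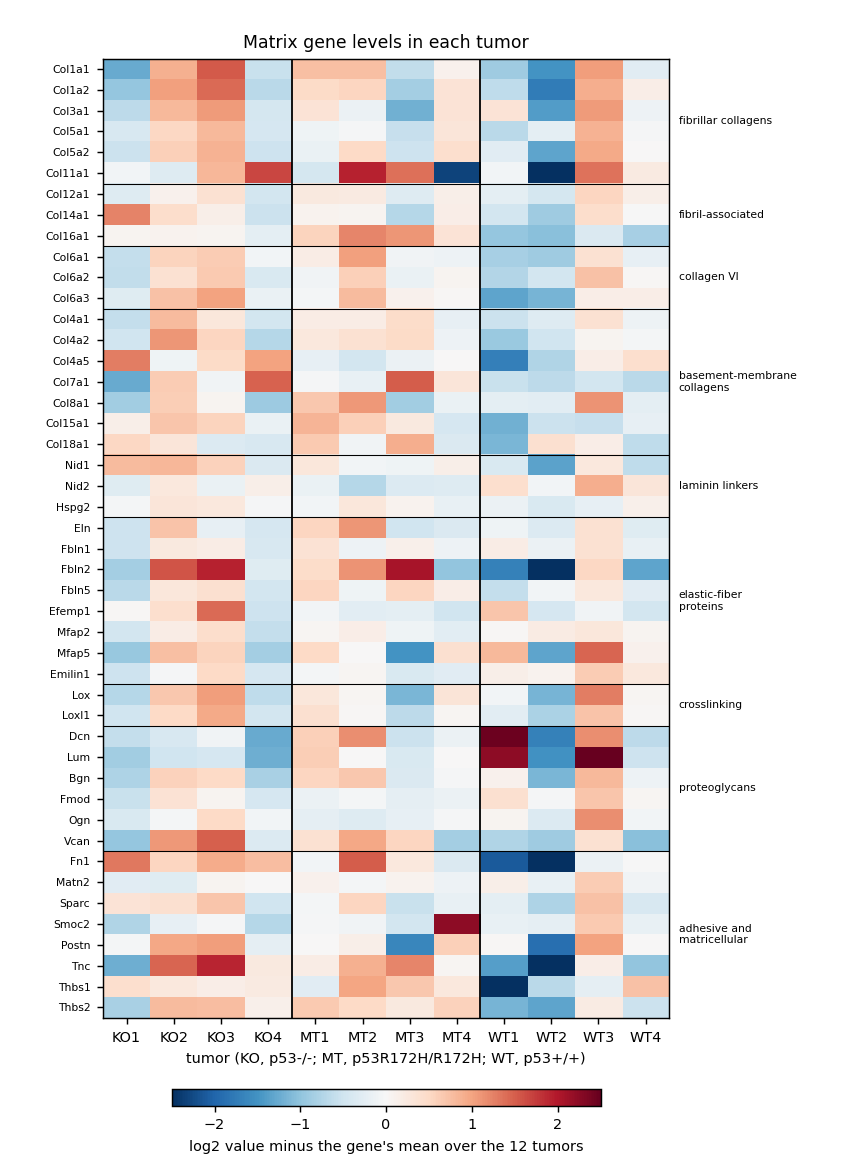
Level of each of the 46 matrix genes (rows, by role) in each tumor (columns, KO, MT and WT), as the log2 value minus the gene's mean over the 12 tumors. KO2, KO3 and WT3 are red in most rows and WT2 and KO1 blue, while Col16a1 is blue in the 4 WT tumors and Smoc2 is red in MT4.

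Basement-membrane collagens followed this order less closely than fibrillar collagens did. The mean of the 6 fibrillar genes was 8.83, 10.07, 10.57 and 9.33 in KO tumors and 9.62, 10.07, 9.08 and 9.34 in MT tumors, against 9.11, 7.74, 10.51 and 9.47 in WT tumors. That of the 7 basement-membrane genes was 8.11, 8.87, 8.51 and 8.27 in KO tumors and 8.64, 8.51, 8.66 and 8.15 in MT tumors, against 7.39, 7.92, 8.42 and 8.07 in WT tumors. MT3 was the lowest MT tumor for the first and the highest for the second, and WT1 replaced WT2 as the lowest WT tumor. The difference between the 2 groups was not tested.

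**Figure D4:**
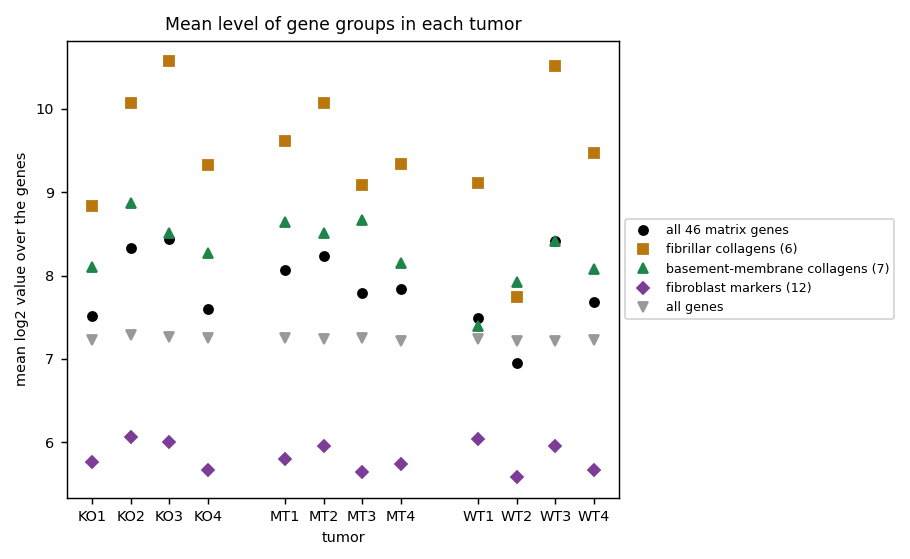
Mean log2 value (vertical axis) of the 46 matrix genes, the fibrillar and the basement-membrane collagens, the fibroblast markers and all genes in each tumor, ordered KO, MT and WT. The fibrillar mean spans 7.74 in WT2 to 10.57 in KO3, while the mean over all genes, held nearly equal by the normalization, stays between 7.21 and 7.29.

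Partner genes, whose products join in 1 protein or fibril, were compared across the 12 tumors in 9 pairs, with two-sided permutation tests adjusted over the pairs. Matrix genes that are not partners were not compared in this way. As certain tumors led or trailed for many matrix genes at once, the values below cannot show a relation particular to partners. Col1a1 and Col1a2 had a Pearson r of 0.97 and a Spearman rho of 0.97 (both p = 1e-05, the smallest these permutations can give, adjusted p = 4.5e-05 and 9e-05). The value of r was 0.95 without the 2 tumors farthest from the Col1a1 median, 0.97 within the 9 tumors of the larger labeling batch (exact permutation p = 1.93e-05) and 0.97 after genotype means were taken off. The head-to-head pair Col4a1 and Col4a2 had r = 0.94 (p = 1e-05, adjusted 4.5e-05) and rho = 0.90 (p = 0.00028, adjusted 0.00084). There r was 0.92 without the 2 farthest tumors, 0.94 within the larger batch (exact permutation p = 0.00024) and 0.96 after removal of genotype means.

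The other collagen pairs were also positive: r was 0.82 for Col1a1 with Col3a1 (permutation p = 0.00149, adjusted 0.00192), 0.83 for Col5a1 with Col5a2 (0.00083, adjusted 0.00124), 0.89 for Col6a1 with Col6a2 (0.00023, adjusted 0.000414) and 0.92 for Col6a1 with Col6a3 (4e-05, adjusted 0.00012). Their rho values were 0.78, 0.85, 0.82 and 0.86 (permutation p = 0.00402, 0.00088, 0.00177 and 0.0007, adjusted 0.00517, 0.00158, 0.00266 and 0.00158). Without the 2 farthest tumors r was 0.70, 0.69, 0.90 and 0.90, and within the larger batch 0.90, 0.85, 0.91 and 0.94. Dcn and Lum, whose products both coat collagen fibrils, had r = 0.89 (permutation p = 6e-05, adjusted 0.000135) and rho = 0.92 (4e-05, adjusted 0.00018), with r = 0.88 without the 2 farthest tumors and 0.94 within the larger batch. Nidogens gave no such relation: Nid1 and Nid2 had r = -0.07 (permutation p = 0.835) and rho = -0.18 (0.572), and after removal of genotype means r = 0.52 (permutation p = 0.0801). Eln and Fbln5 had r = 0.30 (permutation p = 0.335) and rho = 0.31 (0.332), with 0.56 within the larger batch.

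**Figure D5:**
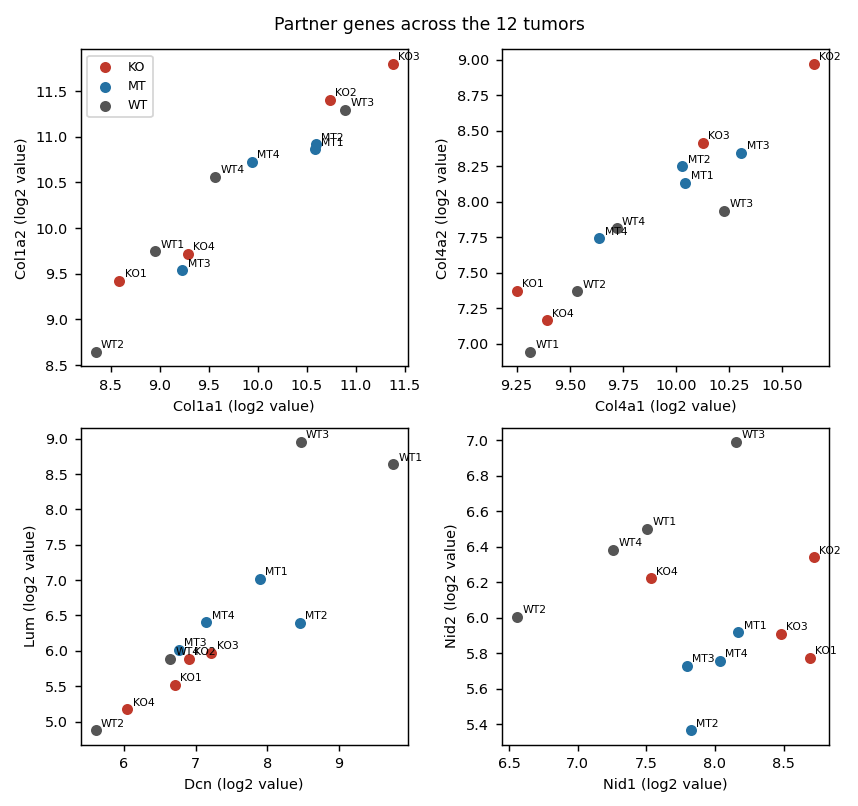
Log2 values of 4 partner pairs against each other, 1 labelled point per tumor, colored by genotype (KO, MT and WT). Col1a1 with Col1a2 (r = 0.97), Col4a1 with Col4a2 (0.94) and Dcn with Lum (0.89) rise together, whereas Nid1 with Nid2 (-0.07) does not.

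Fibroblast markers other than the matrix genes had low mean levels within a narrow range. Of 13 listed, 12 were measured, and 1 was called in KO against WT tumors: Pi16, a marker of adventitial fibroblasts, was lower by -0.89 (adjusted p = 0.0239). Their mean level was 5.67 to 6.06 in KO and 5.64 to 5.95 in MT tumors, against 5.58 to 6.04 in WT tumors. These means lay below 6.93, the cut of the filter on low values, so their narrow range gives no measure of fibroblast content. KO2 and KO3 were the higher KO tumors and MT2 the highest MT tumor, as for the matrix genes, while in the WT group WT1 (6.04) and WT3 (5.95) were the higher and WT2 (5.58) the lowest. Tcf21 was low in all tumors (3.88 to 4.27). Pericyte and smooth-muscle genes averaged 7.07 to 7.34 in KO and 6.96 to 7.39 in MT tumors, against 7.20 to 7.45 in WT tumors, where WT2, the tumor lowest in matrix genes, was the highest. Salivary epithelial genes averaged 9.83, 10.92, 10.23 and 10.68 in WT1 to WT4, so WT2 was the highest there too. In the other groups KO2 (11.09) and MT1 (11.05) were the highest, and both lay above their group's matrix mean. Whether the amount of these cells had a part in the matrix levels was not tested.

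Some markers of other cell types were called lower in KO than in WT tumors, where 4.57% of all probe sets were called in either direction. Endothelial markers averaged 5.84 to 6.23 in KO and 6.11 to 6.34 in MT tumors, against 6.18 to 6.49 in WT tumors. Of 10, 3 were called lower in KO than in WT tumors (Pecam1, -1.05, Emcn, -0.72, and Vwf, -0.74). In the fit with the batch block these differences were the same and the adjusted p-values 0.0518, 0.0529 and 0.0574. As KO and WT tumors share 1 batch, that change comes from the estimated spread and not from the batch. Macrophage markers averaged 8.21 to 8.78 in KO and 8.02 to 9.17 in MT tumors, against 8.62 to 9.24 in WT tumors. Of 10, 2 were called lower in KO tumors (Lyz2, -1.38, and Cd68, -0.91), while 1 went the other way, by 2.13, without a call. Cd68 had the same difference and an adjusted p of 0.0537 in the fit with the batch block. A further C1qb probe set was lower in both KO (-0.71) and MT tumors (-0.92, within-batch -0.73 and not called). Basal, adipocyte and skeletal-muscle markers averaged 4.66 to 6.27 in all tumors, with MT1 at 6.27 for the muscle genes and 5.42 at most in KO tumors, against 5.66 at most in WT tumors. Their part in the Fn1 and Col16a1 results was not tested.

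Other matrix genes, from lists set by function, included some that were called. Of 14 further collagens measured, 2 were called higher in KO than in WT tumors and 1 in MT than in WT tumors, and 0 lower, or 4 and 1 of 20 probe sets, against 4.57% and 0.367% of all probe sets. Col9a3, a chain of the cartilage collagen IX, read 10.42, 10.16, 10.11 and 9.02 in KO tumors and 10.70, 10.07, 10.96 and 9.20 in MT tumors, against 6.67, 7.89, 7.23 and 7.19 in WT tumors. It was 6.43-fold higher in KO (2.68 ± 0.41, adjusted p = 0.0113) and 7.93-fold higher in MT tumors (2.99 ± 0.41, adjusted p = 0.0228, within-batch 1.96 with an adjusted p of 0.41). Its second probe set was called for KO minus WT (3.27 ± 0.48, adjusted p = 0.00885) and not for MT minus WT (2.06 ± 0.48, adjusted p = 0.0747, within-batch 2.83), while MT minus KO was -1.21 (adjusted p = 0.445, within-batch -0.44), and a dim one was not called. Col4a6, which pairs with Col4a5 in the collagen IV of certain epithelia, read 9.16, 7.90, 8.48 and 8.35 in KO tumors and 7.51, 9.11, 8.62 and 7.59 in MT tumors, against 6.29, 7.46, 7.06 and 6.51 in WT tumors. It rose 3.12-fold in KO tumors (1.64 ± 0.40, adjusted p = 0.0422).

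Of 16 collagen-processing genes, 1 was called higher in KO than in WT tumors, and of their 25 probe sets 2 were higher and 1 lower, against 4.57% of all. Plod2, a lysyl hydroxylase that prepares collagen for crosslinking, read 10.31, 10.43, 9.93 and 10.70 in KO tumors and 9.34, 8.83, 10.05 and 9.92 in MT tumors, against 8.93, 8.05, 9.04 and 9.45 in WT tumors. All KO tumors were above all WT tumors, by 1.47 ± 0.33 on average (adjusted p = 0.0318). Colgalt1, a collagen galactosyltransferase, read 8.19, 8.02, 8.21 and 7.86 in KO tumors and 8.71, 8.84, 8.48 and 9.18 in MT tumors, against 9.18, 9.30, 9.01 and 9.0 in WT tumors at its second probe set. It was called lower there in KO tumors (-1.05 ± 0.15, adjusted p = 0.00861) and gave -0.48 ± 0.16 at the first (adjusted p = 0.0924). The study's list also held Col9a3 and Plod2, chosen on these tumors. None of 25 other matrix proteins was called by limma without a block. The fit with the batch block called Comp (adjusted p = 0.0205) and Loxl3 (0.0494) higher in KO than in WT tumors. Both differences were unchanged there, and only their estimated spread was smaller. The largest differences were those of Comp, a cartilage matrix protein, at 7.44, 10.22, 9.20 and 9.50 in KO tumors and 10.80, 9.72, 10.36 and 5.61 in MT tumors, against 6.37, 5.57, 6.91 and 5.60 in WT tumors (KO minus WT 2.98 ± 1.00, adjusted p = 0.102). MT4 was at the WT level for Comp.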

How the data were processed

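Expression was measured in 12 salivary tumors on Affymetrix arrays, 1 array per tumor. The deposited values are log2 expression values, one per probe set, which the authors made by robust multi-array averaging (RMA). The submitters' processing notes name both MAS5 and RMA, and which step used MAS5 was not given in the sources used here. The authors analyzed the values in BRB-ArrayTools 3.5.0. Of 22690 probe sets, 64 controls were left out of the tests.

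All 12 tumors were fitted by genotype in limma 3.58.1 (R 4.3.3), with 9 residual degrees of freedom and Benjamini-Hochberg adjustment over 22626 probe sets (threshold 0.05). The filter on low values asked for values above the median of all values on at least 4 arrays and served as an alternative only. Symbols came from the platform annotation, and those of Trp53 and Efemp2 from the study's supplementary list. Values in every tumor were given for called members and, in role groups without a call, for the member with the smallest p, as well as for up to 4 called genes of each other matrix list. The remaining named members were chosen after their values were seen. No 2 arrays were near duplicates (highest correlation 0.983). The scripts were tested on simulated data. Alternatives changed the filter, scaling, test, threshold, blocks and tumors. The number of arrays limits the precision. The members and lists were chosen with earlier results of these data known.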

Additional observations from a re-analysis of the deposited data

Results flagged for a closer look

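In groups of 4 tumors, a value was singled out where its gap to the nearest other tumor took most of the group's range (Dixon's criterion). Of 141 groups examined, 8 met it, and chance alone gives about 1 in 20. MT3 was low for 3 collagens: Col1a2 at 9.54 (other MT tumors 10.72 to 10.92), Col12a1 at 7.40 (7.87 to 7.95) and Col14a1 at 5.70 (6.48 to 6.57). Col16a1 was at 7.92 in KO4 (other KO tumors 8.23 to 8.27), and Col6a3 at 9.67 in MT2 (other MT tumors 8.84 to 8.98). Col8a1 was at 8.25 in WT3 (other WT tumors 6.85 to 6.87). Smoc2 was at 7.52 in MT4 (other MT tumors 4.84 to 5.26) and at 5.95 in WT3 (other WT tumors 5.07 to 5.11). Among the control probe sets, which enter no comparison, those of added poly-A RNA averaged 10.38 in MT1, 10.50 in MT2 and 10.56 in MT3, far above the remaining tumors. The part of these values in the matrix results was not tested.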

How the results depend on the processing

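The number of matrix probe sets called between KO and WT tumors was 1. It was 2 with dim probe sets left out, with the replicate block and with the labeling batch block, 4 at a threshold of 0.10, and 0 with the 8 tumors alone, by the methods' t-test or with 1 probe set per gene. Leaving out single tumors gave 0 (WT1, WT2 or WT3) to 3 (WT4). Calls over all 22626 probe sets shifted as well: 1035 in the main fit, 374 with the 8 tumors alone, 10 by the t-test and 2541 at 0.10. They were 269, 971 and 196 without WT1, WT2 and WT3, and 1360 without WT4. With dim probe sets left out they were 604 of 12197, and with 1 probe set per gene 557 of 12393. The replicate and batch blocks gave 1019 and 1102. Between MT and WT tumors, calls over all probe sets were 83 in the main fit, 11 with the 8 tumors alone and 0 by the t-test. They were 4 without WT1, 4 without MT3 and 801 without MT4. Among matrix probe sets 1 was called, and 0 with the 8 tumors alone or by the t-test. With single tumors left out it was 0 (without WT1 or MT3) to 2 (without MT4). The batch block also called 1, but it was Smoc2 and not Col16a1. Between MT and KO tumors the batch block called 2 (both of Smoc2), against 0. Across the genotypes 1 was called, 2 with dim probe sets left out, at a threshold of 0.10 or with the batch block, and 0 (without WT1) to 3 (without MT4). Over all probe sets the F test called 529 in the main fit, 1518 at a threshold of 0.10, 24 without WT1 and 1327 without MT4. With dim probe sets left out it called 400 of 12197. The difference of Loxl1 changed sign without WT2 (-0.038) or KO3 (-0.073) and reached 0.46 without WT3, and r of Nid1 and Nid2 was 0.52 after genotype means were removed. The causes were not tested. Of 12 pairs of same-numbered tumors, 6 had correlated deviations above 0.1, and r ranged from 0.002 to 0.33. Pairs with different numbers ranged from -0.27 to 0.27. The labels name no pairing, so the main fit did not pair the tumors, and whether equal numbers mark related tumors was not tested. The replicate block called Col16a1 and Fn1. With single tumors left out, the median MT minus WT difference of the matrix genes ranged from -0.03 to 0.48 and that of MT minus KO from -0.17 to 0.20, so both changed sign.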
